A study of Mus musculus with 6 samples.

Results

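Genes of complement, coagulation and fibrinolysis were followed in ovarian tissue of adult female rats. A list of 37 genes was looked up by name among the 22487 genes of the expression table, and 35 were found. C2 and C5ar1 were not analysed here. Of the 35 genes, 31 averaged 0.5 FPKM or more across the 6 libraries and entered the test, and C5, Cfi, C3ar1 and F5 did not reach that level. FPKM is the authors' level per kilobase of transcript, scaled to the library's total, and CPM is a count scaled to a common library total.

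The 3 PM2.5 libraries came from rats exposed to fine airborne particulate matter of a cowshed, and the 3 control libraries from rats given no treatment. All 6 carry the genotype WT and 30 days in their titles, without a statement of what the days count. The sources used here do not name the strain, exact age, dose or route of exposure. Nor do they say whether each library came from its own animal, so a p-value here covers only the spread among these 6 samples. Mouse is entered as the organism, but the titles say rat, and the 22487 gene identifiers are those of the rat. Total counts were 49554241 to 60749578 in PM2.5 libraries and 47662338 to 51530427 in control libraries. Markers of the labelled tissue were present, with summed levels of 2380 to 7654 CPM in PM2.5 and 1333 to 5354 CPM in control libraries for 7 granulosa cell genes, and of 5621 to 15788 CPM in PM2.5 and 6445 to 11563 CPM in control libraries for 6 luteal cell genes.

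Complement is a chain of plasma proteases that is started by C1 on antibodies, by lectins with their MASP proteases on sugars, or by slow turnover of C3, and that ends in a pore through the target membrane. Coagulation is a second protease chain that runs from tissue factor to thrombin and fibrin, and plasmin, released from plasminogen by the activators Plat and Plau, dissolves the fibrin again. The liver supplies most of the plasma proteins of these chains, while tissues make their own receptors, inhibitors and activators. In the rodent ovary the plasminogen activators are known from the proteolysis of the follicle wall at ovulation.

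None of the 31 tested genes passed an adjusted p of 0.05 in the quasi-likelihood test of edgeR, adjusted by Benjamini-Hochberg across the 15303 genes tested, where 0.928% of all genes passed, 0.190% as higher and 0.738% as lower in PM2.5. DESeq2 called 2 of the 31, Plaur as lower and Cfd as higher in PM2.5, where it called 11.5% of all genes. Limma called Plaur with a pseudocount of 0.1, where it called 1.18% of all genes, and none with a pseudocount of 1, where it called 1.02%. Without adjustment 4 of the 31 had a p below 0.05 in edgeR, or 12.9%, against 20.9% of all genes tested. Cfd and C3 were the 2 that were higher in PM2.5, where 9.17% of all genes were, and Plaur and F8 the 2 that were lower, where 11.7% were. The groups did not overlap in 8 of the 31 genes, or 25.8%, against 27.2% of all genes tested. In 6 of these PM2.5 was above control (12.1% of all genes) and in 2 below (15.2%). Among the 6, C3 and F13a1 reached the level for testing only through PM2.5. The 3 total shares lay near or below those of all genes.

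Positive log2 fold changes of PM2.5 over control were found in 24 of the 31 genes, or 77.4%, against 50.4% of all genes tested, with a median of 0.35 against 0.00 over all genes. C3, C6 and F13a1, all positive, averaged 0.438, 0.382 and 0.350 FPKM in controls, below the 0.5 FPKM needed, and were tested only through PM2.5. The median varied with the library left out. It was 0.13 without PM2.5 library 1 (19 of 29 genes positive), 0.39 without PM2.5 library 2 (24 of 31) and 0.35 without PM2.5 library 3 (22 of 30). It was 0.23 without control library 1 (21 of 31), 0.45 without control library 2 (25 of 30) and 0.28 without control library 3 (22 of 31). Fits with fewer genes lacked C6, F13a1 or both, which fell below the level for testing, so the set of genes changed as well. Over all genes the median lay between -0.01 and 0.02 in these fits. PM2.5 library 1 held the highest value of 11 of the 31 genes, and control library 3 the lowest value of 12.

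**Figure D1:**
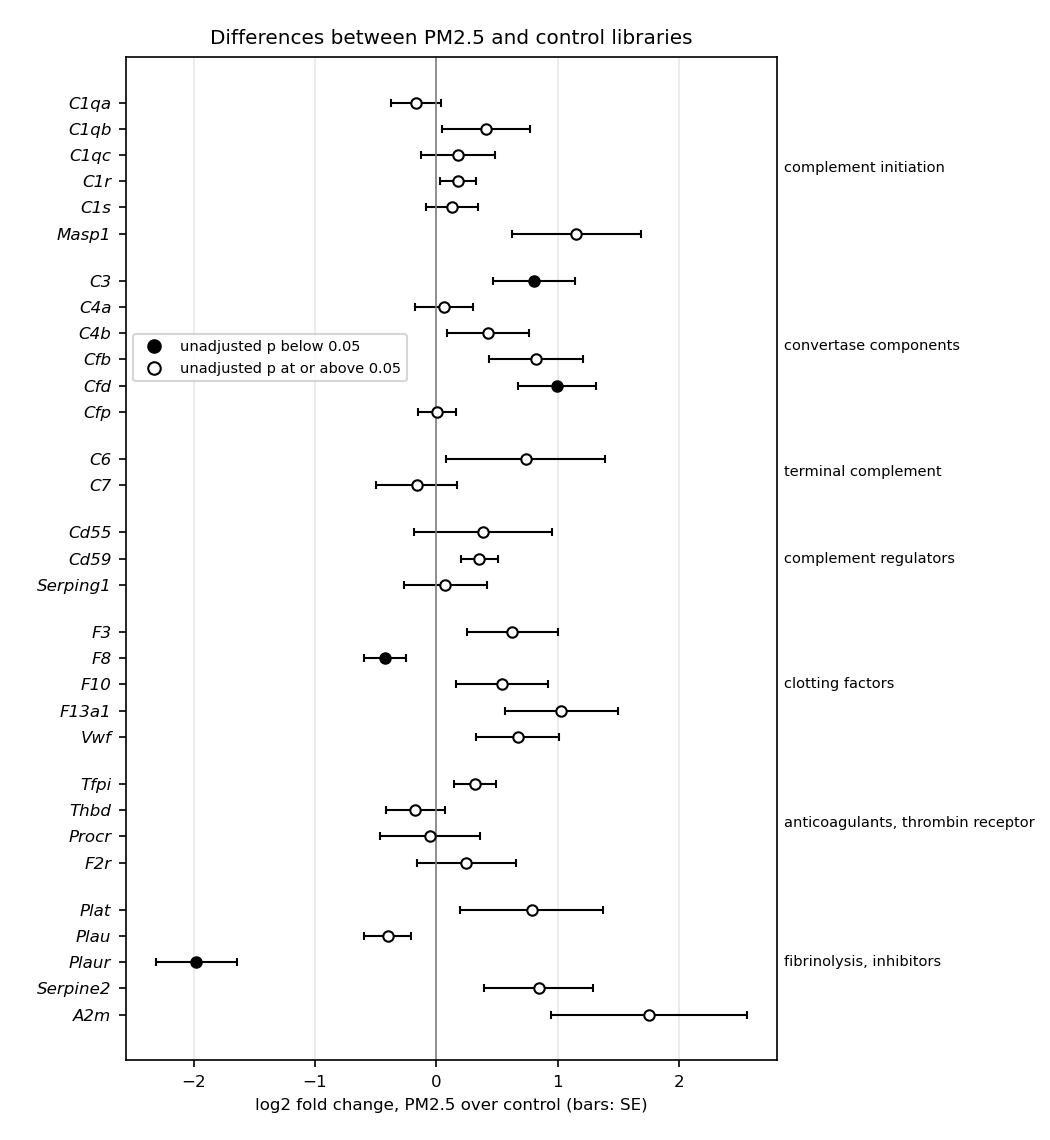
Log2 fold change of PM2.5 over control (x axis) for the 31 tested genes (rows, grouped by role), with SE bars from edgeR's quasi-likelihood fit on 3 PM2.5 and 3 control libraries. Filled points mark the 4 genes with an unadjusted p below 0.05. Plaur stands lowest at -1.98, and A2m has the highest value and the widest bar at 1.76 ± 0.81.

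The levels of the 31 genes spanned from 0.506 FPKM for C6 to 259 FPKM for Serpine2, as means over the 6 libraries. Serpine2 encodes protease nexin-1, an inhibitor of thrombin and of plasminogen activators, and 98.9% of all tested genes had a lower mean level. After it came Masp1 at 89.6 FPKM, Plat at 64.8 FPKM, Cd59 at 51.5 FPKM, C1r at 50.9 FPKM and A2m at 49.7 FPKM. C3, the central protein of complement, had 0.603 FPKM, and the clotting genes F13a1 and F10 had 0.534 and 0.726 FPKM. Levels differed widely within a single step, as between C7 at 17.1 FPKM and C6 at 0.506 FPKM in the terminal pathway.

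**Figure D2:**
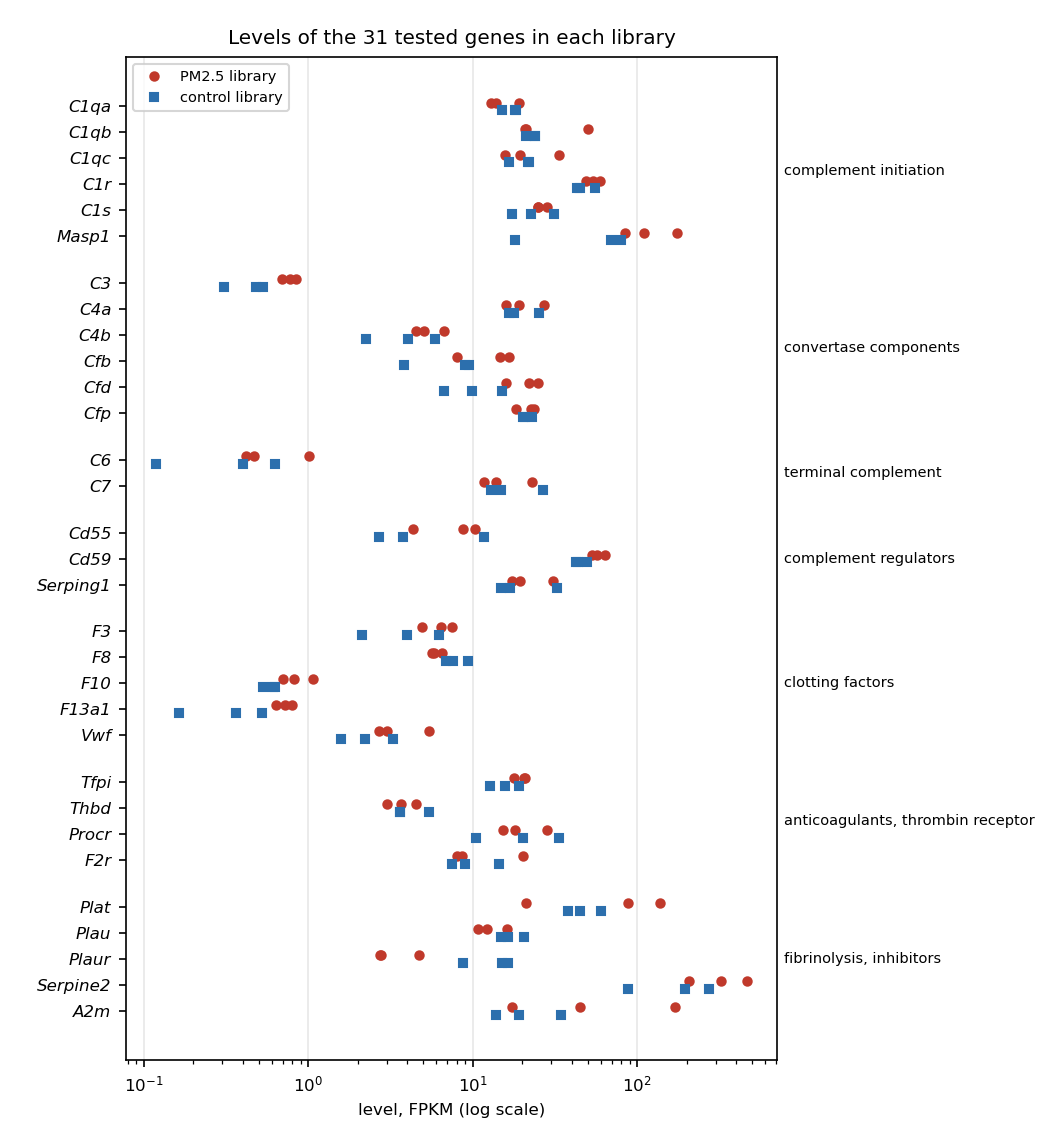
Level in FPKM on a log axis of the 31 tested genes (rows, grouped by role) in each of the 3 PM2.5 libraries (circles) and 3 control libraries (squares). Serpine2 and Masp1 lie at the top of the range and C3, C6, F10 and F13a1 at or below about 1 FPKM, and the PM2.5 values of Plaur lie to the left of its control values.

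The largest log2 fold change in size and the smallest p among the 31 genes belonged to the urokinase receptor. Plaur encodes the cell surface receptor that holds urokinase at the membrane (ENSRNOG00000037931, chromosome 1 from 80050324 to 80068595, plus strand, in the coordinates of the table, whose build no source used here names). It had 8.26, 8.39 and 14.4 CPM in PM2.5 libraries 1 to 3, against 26.7, 48.0 and 47.6 CPM in control libraries 1 to 3. Every PM2.5 library lay below every control library, and the mean level was 10.3 ± 3.50 CPM in PM2.5 and 40.8 ± 12.1 CPM in controls (SD, n = 3 each). The log2 fold change was -1.98 ± 0.33 (SE), 3.94-fold lower in PM2.5, and the edgeR adjusted p of 0.0555 missed the threshold. With any 1 library left out the log2 fold change was between -2.29 and -1.84. DESeq2 gave an adjusted p of 4.95e-06, and limma gave 0.0473 on log2(FPKM + 0.1) and 0.0505 on log2(FPKM + 1). Leukocytes are known to carry this receptor. Of 5 neutrophil markers 4 were found, and they summed to 2.68 to 4.92 CPM in PM2.5 and 2.16 to 2.39 CPM in controls, and without S100a9 to 1.13 to 1.60 CPM in PM2.5 and 0.525 to 1.37 CPM in controls, which overlap. All 6 markers of T and NK cells were found, and they summed to 7.71 to 12.4 CPM in PM2.5 and 21.2 to 51.0 CPM in controls. Gzmb, the granzyme B gene, carried most of that difference, and the other 5 markers summed to 6.75 to 9.9995 CPM in PM2.5 and 8.00 to 10.2 CPM in controls, which overlap. Among those 5, Prf1 was also lower in every PM2.5 library than in every control. It had 0.379 to 1.07 CPM in PM2.5 and 1.94 to 2.12 CPM in controls (log2 fold change -1.44 ± 0.48, edgeR adjusted p = 0.168). Of the 4 markers of T and NK cells that were tested, 1 had a positive fold change. The 11 macrophage markers found, 5 with positive fold changes, summed to 375 to 646 CPM in PM2.5 and 407 to 490 CPM in controls, which overlap. No marker of these lists was at 0 in all libraries, and the part of these lists in Plaur was not tested.

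Plau, which encodes urokinase itself, had 47.8, 42.2 and 63.3 CPM in the PM2.5 libraries, against 58.6, 77.5 and 66.4 CPM in the controls. Here the groups overlapped, with a log2 fold change of -0.40 ± 0.20 and an edgeR adjusted p of 0.291. Counts of Plau per count of Plaur were 5.79, 5.03 and 4.40 in the PM2.5 libraries and 2.19, 1.61 and 1.40 in the controls.

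Plat, which encodes tissue plasminogen activator, varied widely within the PM2.5 group, with 441, 280 and 67.0 CPM in PM2.5 libraries 1 to 3, against 122, 185 and 150 CPM in control libraries 1 to 3. PM2.5 libraries 1 and 2 were above all controls and PM2.5 library 3 below all of them. The log2 fold change was 0.79 ± 0.59 (edgeR adjusted p = 0.478), and with PM2.5 library 1 left out it was 0.19, against 1.24 with PM2.5 library 3 left out.

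Serpine2 had 528, 831 and 1202 CPM in PM2.5 libraries 1 to 3, against 704, 485 and 237 CPM in control libraries 1 to 3. Its groups overlapped, with a log2 fold change of 0.84 ± 0.45 and an edgeR adjusted p of 0.326. A2m, the gene of the broad protease inhibitor alpha-2-macroglobulin, an acute phase protein in the rat, had 921, 247 and 93.8 CPM in the PM2.5 libraries, against 105, 73.5 and 195 CPM in the controls. PM2.5 library 1 alone stood far above the others, and the log2 fold change of 1.76 ± 0.81 (edgeR adjusted p = 0.270) was 0.46 without it. A2m belongs to a family of similar genes, and its value is uncertain if reads were divided among them.

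**Figure D3:**
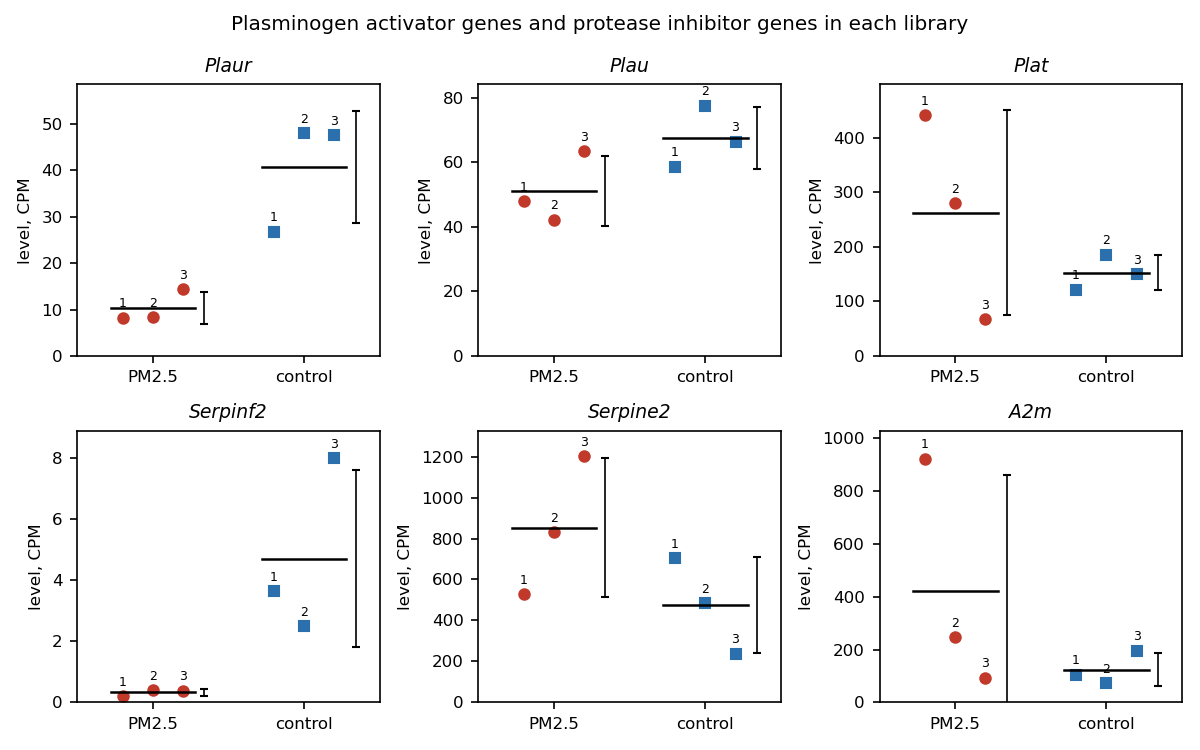
Level in CPM (y axes, from 0) of the plasminogen activator genes Plaur, Plau and Plat and of the protease inhibitor genes Serpinf2, Serpine2 and A2m in the PM2.5 and control libraries, numbered 1 to 3, with the mean as a line and the SD as a bar, which for A2m in PM2.5 reaches below the axis and is cut off at 0. For Plaur and Serpinf2 every PM2.5 library lies below every control library, while the groups overlap for Plau, Plat, Serpine2 and A2m.

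Of the genes that start complement, the 6 tested had log2 fold changes from -0.17 to 1.16 and none had an unadjusted p below 0.05. C1qa, C1qb and C1qc encode the 3 chains of C1q, the recognition part of C1 that tissue macrophages make, and lie side by side on chromosome 5, with gaps of 3.01 and 2.62 kb. Their summed level was 103, 49.4 and 54.3 FPKM in PM2.5 libraries 1 to 3, against 64.0, 52.6 and 63.8 FPKM in control libraries 1 to 3. PM2.5 library 1 stood highest and the other 5 libraries lay close together. The log2 fold changes were -0.17 ± 0.21 for C1qa, 0.41 ± 0.37 for C1qb and 0.18 ± 0.31 for C1qc, and without PM2.5 library 1 C1qb had -0.15 and C1qc had -0.20. Of 12 macrophage markers 11 were tested, 5 with positive fold changes and none with an unadjusted p below 0.05, and none was at 0 in all libraries. Their summed level was 375 to 646 CPM in PM2.5 and 407 to 490 CPM in controls and was highest in PM2.5 library 1 as well. The part of that list in the C1q values was not tested. In bulk tissue, fewer cells of a type and less RNA per cell cannot be told apart.

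C1r, which encodes the protease that C1q activates, had 166, 151 and 184 CPM in the PM2.5 libraries, against 133, 164 and 145 CPM in the controls. It varied least among the most abundant genes, 1.38-fold between its highest and lowest library, with a log2 fold change of 0.18 ± 0.15 (edgeR adjusted p = 0.521). Its neighbour C1s, the next protease of the chain, had 0.13 ± 0.21. Masp1, a protease gene of the lectin pathway, had 562, 733 and 1160 CPM in PM2.5 libraries 1 to 3, against 530, 446 and 125 CPM in control libraries 1 to 3. Every PM2.5 library was above every control, PM2.5 library 1 by a narrow margin over control library 1, and control library 3 stood far below the rest. Its log2 fold change was 1.16 ± 0.54 (edgeR adjusted p = 0.273), and 0.75 without control library 3.

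Serpine2 and Masp1 shared their extreme libraries with 3 of the 16 marker lists, those of granulosa cells, oocytes and surface epithelium. PM2.5 library 3 was highest and control library 3 lowest in both genes and in these sums. The oocyte sum was 64.6 to 227 CPM in PM2.5 and 34.8 to 144 CPM in controls, and that of surface epithelium 155 to 177 CPM in PM2.5 and 41.7 to 112 CPM in controls. Wt1 carried the gap in the surface epithelium sum, and without it PM2.5 library 1 was highest. The other 4 markers then summed to 33.2 to 69.4 CPM in PM2.5 and 11.9 to 37.0 CPM in controls, which overlap. The granulosa sum was 2380, 6460 and 7654 CPM in PM2.5 libraries 1 to 3 and 5354, 4882 and 1333 CPM in control libraries 1 to 3. All 7 granulosa markers were tested, 6 with positive fold changes, and none was at 0 in all libraries. Inha, an inhibin subunit gene, made up most of that sum, and without it control library 2 was highest, with 656 to 1502 CPM in PM2.5 and 448 to 1629 CPM in controls. A2m was highest in PM2.5 library 1 and second highest in PM2.5 library 2, and PM2.5 library 1 was highest in 4 of the 16 marker sums, those of macrophages, luteal cells, hepatocytes and neutrophils. The hepatocyte sum was highest there through Serpina1, the alpha-1-antitrypsin gene. Without Serpina1 that sum was lowest in PM2.5 library 1, at 4.12 CPM, against 14.8 to 40.2 CPM in the other libraries. The sum of the 6 luteal markers was 15788, 8293 and 5621 CPM in PM2.5 libraries 1 to 3 and 7063, 6445 and 11563 CPM in control libraries 1 to 3. All 6 luteal markers were tested, 2 with positive fold changes, and none was at 0 in all libraries. The part of these marker sums in the values of the 4 genes was not tested.

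**Figure D4:**
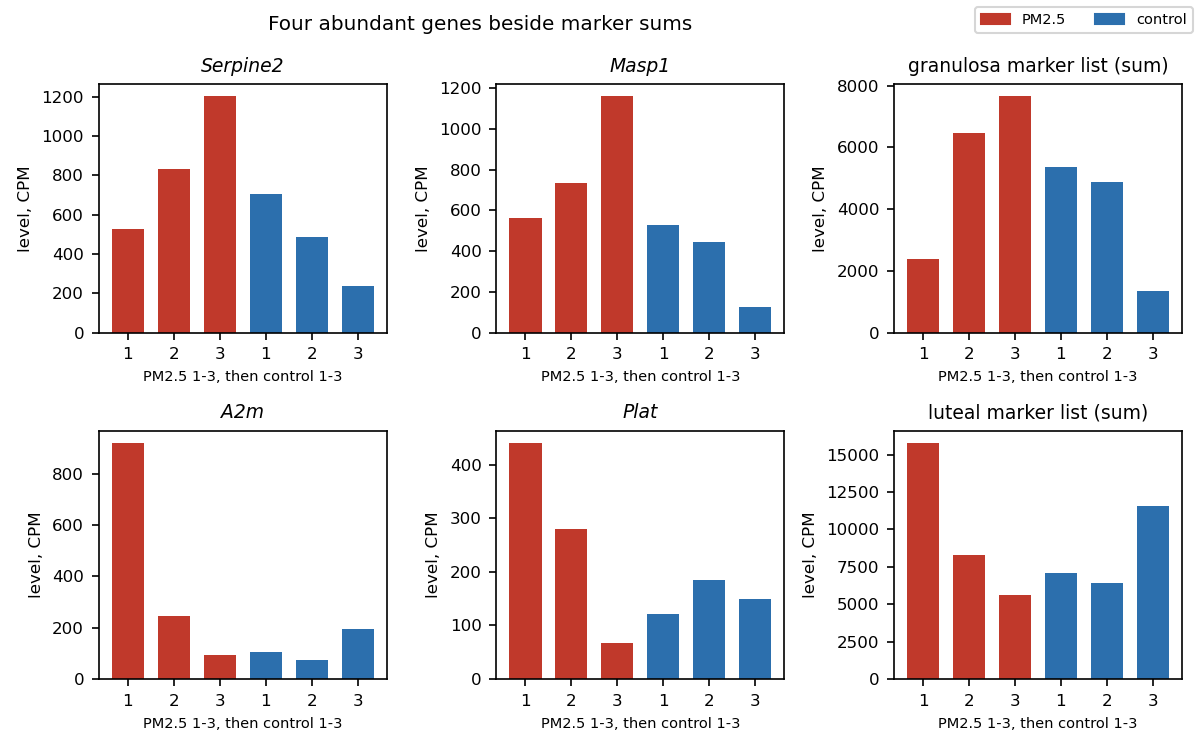
Level in CPM (y axes, from 0) of Serpine2, Masp1, A2m and Plat beside the summed level of 7 granulosa and 6 luteal marker genes in each library, PM2.5 libraries 1 to 3 before control libraries 1 to 3. Serpine2, Masp1 and the granulosa sum share their highest library, PM2.5 library 3, and their lowest, control library 3. A2m, Plat and the luteal sum share their highest, PM2.5 library 1.

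All 6 tested genes of the C3 and C5 convertases had positive log2 fold changes, from 0.01 for Cfp to 1.00 for Cfd, with a median of 0.62, and none passed in edgeR. Those of C4a and Cfp were near 0 and turned negative in 3 of the 6 fits that left out a library each, down to -0.17 for C4a and -0.06 for Cfp. Cfd, which encodes factor D, the protease that activates factor B and that fat cells secrete as adipsin, had 17.9, 28.3 and 24.8 CPM in PM2.5 libraries 1 to 3, against 11.3, 16.4 and 7.90 CPM in control libraries 1 to 3. Every PM2.5 library was above every control, with a log2 fold change of 1.00 ± 0.32 and an adjusted p of 0.160 in edgeR and of 0.0428 in DESeq2. Of the 4 fat cell markers 2 were tested, Adipoq and Plin1. The 4 summed to 35.2, 37.2 and 5.18 CPM in PM2.5 libraries 1 to 3 and 2.47 to 5.01 CPM in controls, while Lep had no count in PM2.5 library 2 and control library 3. Adipoq alone carried that difference, and the other 3 markers summed to 1.85 to 3.41 CPM in PM2.5 and 0.523 to 3.21 CPM in controls, which overlap. The part of fat cells in the Cfd values was not tested.

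C3, whose cleavage product marks targets for uptake, had 4.52, 4.02 and 4.94 CPM in the PM2.5 libraries, from 237 to 245 counts each, against 2.82, 2.99 and 1.88 CPM in the controls, from 93 to 153 counts each. The groups did not overlap, with a log2 fold change of 0.81 ± 0.34 and an edgeR adjusted p of 0.239. The mean level of C3 was 0.768 FPKM in PM2.5 and 0.438 FPKM in controls, so it reached the level for testing only through PM2.5. Cfb, which encodes the protease of the alternative convertase, had 85.0, 96.8 and 46.8 CPM in the PM2.5 libraries, against 55.2, 50.7 and 23.3 CPM in the controls, and the groups overlapped (log2 fold change 0.82 ± 0.39). Cfp, which encodes the stabiliser properdin, was the steadiest gene of all 31, from 31.0 to 39.4 CPM in PM2.5 and from 33.8 to 38.4 CPM in controls. C4a and C4b, near-identical copies that can share reads, had log2 fold changes of 0.06 ± 0.24 and 0.43 ± 0.34. Both lie with Cfb on chromosome 20, Cfb and C4a 35.4 kb apart and C4a and C4b 177 kb apart.

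In the terminal pathway C7 had 56.3 to 110 CPM in PM2.5 and 64.9 to 123 CPM in controls, and C6 had 1.41 to 3.38 CPM in PM2.5 and 0.424 to 2.03 CPM in controls, with overlapping groups in both. C5, below the level needed for testing, had 10, 34 and 35 counts in PM2.5 libraries 1 to 3, against 38, 37 and 53 counts in control libraries 1 to 3. Among the regulators Cd59, which blocks the membrane pore, had 257, 231 and 215 CPM in the PM2.5 libraries, against 171, 170 and 209 CPM in the controls. These groups did not overlap, by a narrow margin between PM2.5 library 3 and control library 3, and the log2 fold change of 0.35 ± 0.15 had an edgeR adjusted p of 0.247. Cd55, which dissolves convertases, had a log2 fold change of 0.39 ± 0.57, which was 1.24 without control library 2 and 0.06 without control library 3. Serping1, the C1 inhibitor gene, had 0.08 ± 0.34, and between -0.21 and 0.47 with a library left out. Cfi, which encodes the protease that degrades C3b, was too low to test, with 23 to 112 counts in PM2.5 and 12 to 47 counts in controls.

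C3ar1, which encodes the receptor for the anaphylatoxin C3a, was also too low to enter the test. It had 55, 19 and 8 counts in PM2.5 libraries 1 to 3, against 137, 98 and 192 counts in control libraries 1 to 3, so that every PM2.5 library lay below every control. In the fit without a filter on low values its log2 fold change was -2.50 ± 0.76 and its edgeR adjusted p was 0.192. The summed level of the macrophage markers, given above with C1q, overlapped between the groups, and its part in C3ar1 was not tested.

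Of the clotting genes, F8 was lower in PM2.5. It encodes factor VIII, the cofactor of the protease that activates factor X, and had 56.9, 49.5 and 50.6 CPM in the PM2.5 libraries, against 60.8, 64.0 and 85.6 CPM in the controls. The groups did not overlap, and the log2 fold change of -0.42 ± 0.17 had an edgeR adjusted p of 0.226. F3, which encodes tissue factor, had 30.7, 26.3 and 20.1 CPM in the PM2.5 libraries, against 16.3, 24.6 and 9.03 CPM in the controls, and overlapped (0.63 ± 0.37). Vwf, the gene of the platelet-binding carrier of factor VIII, had 29.3, 32.9 and 58.9 CPM in the PM2.5 libraries, against 24.0, 34.1 and 18.0 CPM in the controls, and overlapped (0.67 ± 0.34).

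F13a1, which encodes the fibrin cross-linking enzyme, and F10, which encodes factor X, were low throughout, with 152 to 159 and 72 to 98 counts in PM2.5 and 35 to 104 and 46 to 55 counts in controls. Their groups did not overlap, with log2 fold changes of 1.03 ± 0.47 and 0.55 ± 0.38. The mean level of F13a1 was 0.718 FPKM in PM2.5 and 0.350 FPKM in controls, so it reached the level for testing only through PM2.5. F13a1 is known from platelets and macrophages. The 6 platelet markers, of which 2 were tested, summed to 13.8 to 18.1 CPM in PM2.5 and 7.88 to 12.3 CPM in controls, and without Itga2b to 3.36 to 4.61 CPM in PM2.5 and 3.70 to 4.31 CPM in controls, which overlap. Gp9, too low to test, was also higher in every PM2.5 library, with 45, 35 and 34 counts against 10, 17 and 0 counts in controls. The groups overlapped in Pf4, Ppbp, Gp1bb and Treml1. Ppbp had no count in 5 of the 6 libraries. The 6 erythroid markers summed to 2737 to 4269 CPM in PM2.5 and 785 to 1043 CPM in controls. Without Hba-a1 they summed to 1100 to 1688 CPM in PM2.5 and 335 to 427 CPM in controls. Of the 5 tested, 3 were higher at an edgeR adjusted p below 0.05, where 0.190% of all genes were. Hba-a3 and Ahsp overlapped between the groups, with log2 fold changes of -0.14 ± 0.40 and 0.27 ± 0.45. The part of blood in these values was not tested. F5, which encodes factor V, the cofactor of activated factor X, was below the level for testing, with 282, 63 and 15 counts in PM2.5 libraries 1 to 3, against 0, 27 and 4 counts in control libraries 1 to 3.

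The 4 anticoagulant and thrombin receptor genes had log2 fold changes between -0.17 and 0.32, and the groups overlapped in each. Tfpi, the inhibitor of the tissue factor pathway, had 80.2 to 93.3 CPM in PM2.5 and 56.8 to 82.7 CPM in controls (0.32 ± 0.17). Thbd, which encodes thrombomodulin, the thrombin receptor of endothelium that starts protein C activation, had 14.6 to 21.8 CPM in PM2.5 and 17.5 to 25.3 CPM in controls (-0.17 ± 0.24). Procr, the protein C receptor gene, had -0.05 ± 0.41, and 0.39 without control library 2. F2r, the thrombin receptor gene that signals by cleavage, had 0.25 ± 0.41, and -0.31 without PM2.5 library 1.

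A further 80 genes of these pathways were listed, 71 were found and 39 reached the level for testing. Most genes of plasma proteins from the liver were among the 32 that did not, such as those of prothrombin (F2), the fibrinogen chains Fga and Fgb, and plasminogen (Plg), each with a mean below 0.2 FPKM. Fgg, the gene of the remaining fibrinogen chain, had 0.731 FPKM and was tested (log2 fold change -0.01 ± 0.41). Of the 39 genes 2 fell and none rose, or 5.13% called against 0.928% of all genes, and 12 had an unadjusted p below 0.05, or 30.8% against 20.9%. The wider list was chosen with earlier results of these data known, so no conclusion on these pathways is drawn from these shares. Cd93, a C1q receptor-like glycoprotein of endothelial and myeloid cells, had 26.0, 17.6 and 21.2 CPM in the PM2.5 libraries, against 53.1, 54.0 and 71.8 CPM in the controls. It fell with a log2 fold change of -1.46 ± 0.21 (edgeR adjusted p = 0.0434). Thbd lies 24.7 kb from Cd93 on chromosome 3 and did not pass. Of 8 endothelial markers 7 were tested, 2 with positive fold changes, and none was at 0 in all libraries. Their sum was 399 to 650 CPM in PM2.5 and 464 to 768 CPM in controls, and its part in Cd93 was not tested.

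Serpinf2, the gene of the plasmin inhibitor alpha-2-antiplasmin, fell with a log2 fold change of -3.83 ± 0.60 (edgeR adjusted p = 0.0486), from few counts. It had 11, 24 and 19 counts in PM2.5 libraries 1 to 3, against 174, 128 and 396 counts in control libraries 1 to 3. Its mean level was 0.0969 FPKM in PM2.5 and 1.39 FPKM in controls, so it reached the level for testing only through the controls. Both calls were lost without a filter on low values, where the edgeR adjusted p was 0.0540 for Cd93 and 0.0620 for Serpinf2. They were also lost with any 1 library left out, where it was 0.0706 to 0.230 for Cd93 and 0.0706 to 0.248 for Serpinf2, and Serpinf2 did not reach the level for testing without control library 3. With limma Cd93 was called at both pseudocounts, at adjusted p of 0.0397 and 0.0429, and Serpinf2 at neither, at 0.0678 with a pseudocount of 0.1 and above 0.1 with a pseudocount of 1.

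Other genes of the wider list are named after their values were seen. C5ar2, the alternative receptor for the anaphylatoxin C5a, had 45.0, 34.5 and 38.4 CPM in the PM2.5 libraries, against 18.8, 19.4 and 14.5 CPM in the controls, with the groups apart (1.16 ± 0.19, edgeR adjusted p = 0.0521). DESeq2 called C5ar2, with an adjusted p of 1.14e-05. Masp2, the lectin pathway protease that cleaves C4, had 17.0 to 25.5 CPM in PM2.5 and 7.40 to 12.8 CPM in controls (1.05 ± 0.28). Itgax, which encodes a subunit of complement receptor 4, had 3.50 to 4.65 CPM in PM2.5 and 8.66 to 12.3 CPM in controls (-1.25 ± 0.29). Anxa5, which encodes the phospholipid-binding anticoagulant annexin A5, had 405 to 577 CPM in PM2.5 and 961 to 2372 CPM in controls (-1.62 ± 0.39). The groups were apart in these 3 as well, and none passed in edgeR.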

How the data were processed

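RNA of 3 PM2.5 and 3 control ovarian samples was enriched for poly(A) and made into paired-end libraries that keep the strand by dUTP, per the labels' protocols. Tools named are edgeR, DESeq2, StringTie 2.1.6, HISAT2 2.2.1 and cutadapt 1.9, per the submitters' processing notes. No source used here names the build, the annotation release or the strand setting of counting, and overlapping or antisense genes may share reads. Each gene has, in the deposited table, a whole-number count and an FPKM value for every library, per the file headers. FPKM, the authors' normalisation, served for levels between genes, the filter and the limma alternatives.

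Counts as deposited were tested for PM2.5 over control with edgeR 4.0.16 in R 4.3.3 (TMM factors, glmQLFit, glmQLFTest, two-sided, Benjamini-Hochberg over 15303 genes averaging 0.5 FPKM or more). SE is the log2 fold change divided by the square root of F. CPM uses TMM factors. No interval of counting error is given, and replicate spread exceeds it, with chi-square per degree of freedom of at least 117 within groups. Alternatives were DESeq2 1.42.0, limma 3.58.1, other factors and filters, leaving out each library, and a replicate block. The test was checked on simulated data. Genes, wider list and marker lists were chosen with earlier results of these data known. Values by library are given for genes with an unadjusted p below 0.05, for the 6 most abundant and for some others. Of the wider list, genes called by edgeR are named, and others where stated, and 1 gene that is counted there is not reported here by name. No sequence is printed, since the reference at hand is of the mouse.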

Additional observations from a re-analysis of the deposited data

How the results depend on the processing

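Genes called over all genes numbered 142 in edgeR, 8 without a filter, 1767 with DESeq2, 1 with the replicate block and 0 to 7 with a library left out, and 130 to 180 with median-of-ratios factors, a mean of at least 1 FPKM and both limma settings. Of the 31 genes studied 0 were called, 2 with DESeq2 and 1 with limma on log2(FPKM + 0.1), and 0 in every other setting run. Of the wider list 2 were called, 9 with DESeq2, 1 with a mean of at least 1 FPKM, 1 with limma on log2(FPKM + 1), and 0 without a filter, with the replicate block and with any library left out. The cause of these differences was not tested, and a fit with a library left out also had fewer samples. Serpinf2 entered no test with a mean of at least 1 FPKM, nor without control library 3. Over the 31 genes, 3 of 395 recomputed fold changes gained a call, 22 changed sign between values that were not called, and no called direction turned. The labels do not say that equal numbers mark pairs, and deviations of same-numbered libraries correlated at -0.296, 0.133 and -0.0525, so the numbers were not taken as pairs. Low counts limit C5, C6, C3ar1, Cfi, F5, F10, F13a1 and Serpinf2.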

Other observations

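The annotation column of the deposited table places 75 genes in the KEGG pathway of complement and coagulation cascades, among them 33 of the 35 genes studied. Cfp and C7 are the other two. Of the 75 genes 45 reached the level for testing, 31 with positive log2 fold changes and a median of 0.25. Over all genes tested 50.4% were positive, with a median of 0.00. None rose and 1 of the 45 fell in edgeR, where 0.928% of all genes tested were called. It was Serpinf2, which was tested only through its control values. An unadjusted p below 0.05 was found in 10 of the 45, or 22.2%, against 20.9% of all genes tested. Most of these genes are also on the lists of the report, so these counts are not independent of it.

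Serpina1, the gene of the protease inhibitor alpha-1-antitrypsin, had 2671, 1382 and 136 counts in PM2.5 libraries 1 to 3, against 111, 0 and 0 counts in control libraries 1 to 3. Its edgeR adjusted p was 0.207. Serpina1 is 1 of the 6 hepatocyte markers, which summed to 31.2 to 55.1 CPM in PM2.5 and 18.4 to 40.2 CPM in controls. Without Serpina1 the other 5 (Alb, Apoa1, Ttr, Fga and Fgb) summed to 4.12, 14.8 and 28.5 CPM in PM2.5 libraries 1 to 3 and 21.9, 18.4 and 40.2 CPM in control libraries 1 to 3. The part of that list in the Serpina1 values was not tested.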
